A study of Mus musculus with 8 samples.

Results

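The AP-1 Fos and Jun factors are 7 genes, Fos, Fosb, Fosl1 and Fosl2 of the Fos family and Jun, Junb and Jund of the Jun family. They were taken by gene symbol from the 54532 genes of an RNA sequencing table of mouse liver, by a rule that used names and no measured value. Livers of 4 METTL3-HKD and 4 METTL3-Flox mice were collected after 1 h of warm ischemia of part of the liver and 6 h of reperfusion (I/R), so all 8 mice had undergone I/R and no sham-operated liver was analysed here. METTL3 is the catalytic subunit of the complex that writes N6-methyladenosine onto mRNA, and the study asked how its reduction in hepatocytes changes the injured liver. METTL3-HKD mice are written METTL3 flox/-; Alb-iCre and were described as heterozygous, with loxP sites around exon 4 and an iCre recombinase under the albumin promoter, which is active in hepatocytes. METTL3-Flox mice are METTL3 flox/flox without the recombinase and came from the same litters on a C57BL/6 background. Heterozygotes were used because hepatocyte knockouts died young, the age of these mice is not given in the sources used here, and the samples are whole liver, so fewer cells of one type and less RNA per cell cannot be told apart.

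AP-1 is a dimer of basic leucine zipper (bZIP) proteins that binds the DNA element TGANTCA. Fos proteins cannot pair with one another and need a Jun partner, whereas Jun proteins can also pair among themselves. Most members are immediate early genes, whose transcription rises within minutes of growth factor or stress signals through MAP kinases and whose mRNAs decay quickly, and in liver they are known for the response to partial hepatectomy, ischemia and cytokines.

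The promoter sequences of 4 members are shown because they carry the response elements through which immediate early genes are known to be switched on. Each is the plus or minus strand, 5′ to 3′, over the 250 bases before the transcription start of RefSeq on GRCm38.p6. Capitals mark TGACG, which is the core of the cAMP response element, TGACNTCA, the form of AP-1 element known from the Jun promoter, TGANTCA, the serum response element core called the CArG box, and TATAAA, each searched on both strands. A TGACG can lie inside a TGACNTCA.
Fos, chr12:85473640-85473889, plus strand: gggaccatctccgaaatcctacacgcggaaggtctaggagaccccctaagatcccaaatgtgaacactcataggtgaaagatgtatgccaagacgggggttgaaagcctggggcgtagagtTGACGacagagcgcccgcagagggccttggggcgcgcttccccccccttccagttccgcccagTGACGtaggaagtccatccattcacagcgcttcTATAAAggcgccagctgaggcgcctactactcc
Fosb, chr7:19310046-19310295, minus strand: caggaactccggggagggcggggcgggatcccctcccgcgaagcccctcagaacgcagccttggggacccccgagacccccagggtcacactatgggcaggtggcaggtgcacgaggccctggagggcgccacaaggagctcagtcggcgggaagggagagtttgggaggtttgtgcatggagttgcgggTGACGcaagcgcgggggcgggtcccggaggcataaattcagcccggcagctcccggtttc
Jun, chr4:95052223-95052472, minus strand: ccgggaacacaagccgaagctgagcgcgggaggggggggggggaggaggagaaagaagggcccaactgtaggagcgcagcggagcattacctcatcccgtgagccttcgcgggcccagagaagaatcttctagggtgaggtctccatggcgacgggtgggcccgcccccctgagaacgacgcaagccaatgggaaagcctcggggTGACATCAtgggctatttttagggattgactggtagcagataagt
Junb, chr8:84978749-84978998, minus strand: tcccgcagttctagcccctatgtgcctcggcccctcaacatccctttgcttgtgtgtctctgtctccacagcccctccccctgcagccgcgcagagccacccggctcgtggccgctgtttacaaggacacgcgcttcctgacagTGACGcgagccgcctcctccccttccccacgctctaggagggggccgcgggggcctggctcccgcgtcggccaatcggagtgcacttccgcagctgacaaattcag
In Fos, TGACG was found at bases 129 to 125 and 66 to 62 before the start, and TATAAA at bases 33 to 28. Fosb held TGACG at bases 60 to 56, Junb at bases 106 to 102, and Jun held TGACNTCA at bases 45 to 38. Windows were read for 6 members, since Fosl1 has no entry in the table, and those of Fosl2 and Jund are not shown because the RefSeq start lies 671 and 1210 bases from the start of the deposited gene. TGACG was present in 3 of the 6 windows and in 17.8% of 32851 windows of the same length, and TGACNTCA in 1 of 6 and in 7.49%. TATAAA was present in 1 of 6 and in 12.4% of windows, and GGGCGG, a GC box that is not in capitals, in 4 of 6 and in 32.7%. TGANTCA and the CArG box were in 0 of 6 windows, against 6.75% and 1.47% of all windows. These matches describe letters only, and 250 bases do not reach elements farther upstream.

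The deposited values are FPKM, fragments per kilobase of gene length and per unit of library size, already scaled between libraries, so that levels of different genes can be compared per length. The deposited length is 9680 bases for Fosl2 and 1707 for Fosl1, against 6537 and 1864 in their longest coding transcripts of GENCODE M21. The order and shares of members given below depend on the length used. The libraries held 15961479 to 18434488 reads on genes in METTL3-HKD mice and 15861245 to 17262991 in METTL3-Flox mice. Mettl3 itself did not separate the groups, with 1.56, 1.39, 1.17 and 1.20 FPKM in livers 1 to 4 of the METTL3-HKD group and 1.84, 1.16, 1.45 and 1.54 FPKM in those of the METTL3-Flox group (log2 fold change −0.16, standard error 0.165, adjusted p = 0.556 with limma), and an FPKM over the whole gene is not specific to the floxed exon. The study itself reported a liver-specific reduction of METTL3 in METTL3-HKD mice, from its expression in major organs. The 7 hepatocyte markers found of 8 were expressed at a high summed level, 24880 to 35820 FPKM in METTL3-HKD and 31760 to 37010 FPKM in METTL3-Flox livers. METTL3-HKD livers 1 and 2, at 24880 and 25960 FPKM, lay below every METTL3-Flox liver, and livers 3 and 4 did not. Their median log2 fold change was −0.36, and 0 of the 7 passed both thresholds given below. Hnf4a, named after its value was seen, was lower below the fold threshold (−0.48, adjusted p = 0.0187 with limma). Differences were tested with limma on log2(FPKM + 0.1) over the 16645 genes whose mean over all 8 livers reached 0.1 FPKM, and a gene was called upregulated when its adjusted p was under 0.05 and its log2 fold change was 1 or more. This scale understates the change of genes at low levels. A gene under 0.1 FPKM in METTL3-Flox livers could enter through METTL3-HKD livers, as Fosb did (means 0.0496 and 0.528 FPKM). The labels name separate mice, and nothing in them gives a batch.

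All 7 AP-1 genes were higher in METTL3-HKD livers at an adjusted p under 0.05 with limma, where 9.05% of all tested genes were. Of these, 6 also passed the fold threshold and were upregulated, where 4.7% of all tested genes were upregulated, and the remaining gene was Jund. In the same 6 genes the lowest METTL3-HKD liver exceeded the highest METTL3-Flox liver, which held for 12.7% of tested genes. The log2 fold changes ran from 0.80 in Jund to 4.85 in Fosl1, with a median of 1.99 over the 7 genes and of −0.00 over all genes tested. The median was 3.02 over the Fos family and 1.02 over the Jun family. The 7 genes were chosen with earlier results of these data known, so their counts are a description. Summed neutrophil markers were higher in the same livers, at 330 to 1624 FPKM against 12.9 to 45.1 FPKM, and their part in the AP-1 levels was not tested. By group means, S100a8 and S100a9 held most of this sum, at 223 and 403 FPKM in METTL3-HKD livers. Ngp and Camp of the same list were not called (adjusted p = 0.107 and 0.98 with limma), and Ltf was not tested. All of these markers are named after their values were seen.

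**Figure D1:**
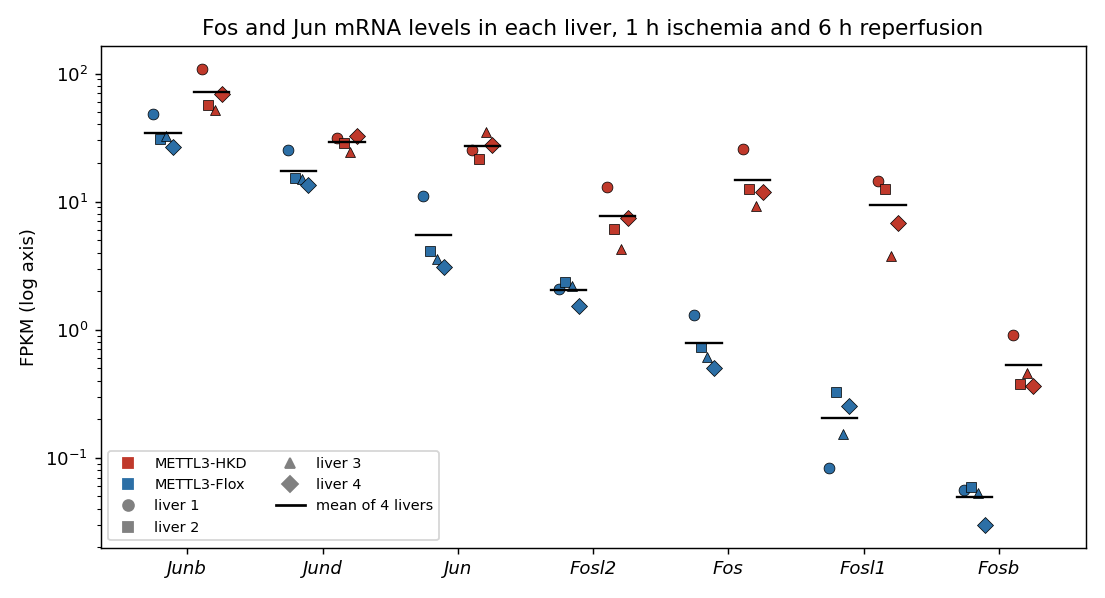
FPKM of the 7 AP-1 genes in each liver on a logarithmic axis, METTL3-Flox in blue and METTL3-HKD in red, with the liver number given by the symbol and the mean of 4 livers by a bar. The groups are apart in 6 genes, and in Jund METTL3-Flox liver 1 (25.5 FPKM) lies above METTL3-HKD liver 3 (24.5 FPKM).

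Fos (ENSMUSG00000021250, chr12:85473890-85477273) encodes c-Fos, the founding member of the family. It had 25.8, 12.6, 9.18 and 11.8 FPKM in livers 1 to 4 of the METTL3-HKD group and 1.29, 0.737, 0.615 and 0.502 FPKM in those of the METTL3-Flox group. METTL3-HKD liver 1 stood highest, and the lowest METTL3-HKD liver was 7.13 times the highest METTL3-Flox liver. The means were 14.8 ± 7.43 and 0.785 ± 0.348 FPKM (SD, n = 4 each), a ratio of 18.9. The log2 fold change was 4.04 (standard error 0.345, 95% interval 3.26 to 4.82, adjusted p = 0.00112 with limma). The exact permutation test of the FPKM, two-sided over 70 arrangements, gave p = 0.0286, the smallest that 4 against 4 mice allow.

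Fosl1 (ENSMUSG00000024912, chr19:5447703-5455945) encodes Fra-1, which lacks the strong activation domain of c-Fos. It showed the largest ratio among the 7 genes, with 14.4, 12.5, 3.76 and 6.78 FPKM in METTL3-HKD livers 1 to 4. METTL3-Flox livers 1 to 4 had 0.0824, 0.326, 0.154 and 0.255 FPKM, which rest on 2 to 9 reads per liver. The gene was thus near the limit of detection in every METTL3-Flox liver, and no METTL3-HKD liver came near that range. The 22 reads summed over the 4 METTL3-Flox livers have an exact Poisson 95% interval of 13.8 to 33.3, which covers counting error only. The means were 9.35 ± 4.94 and 0.204 ± 0.108 FPKM (SD, n = 4 each), 45.8 times apart, with a log2 fold change of 4.85 (standard error 0.432, 95% interval 3.87 to 5.83, adjusted p = 0.00112 with limma).

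Fosb (ENSMUSG00000003545, chr7:19302696-19310051) was the least abundant member by FPKM in both groups. Its levels were 0.916, 0.373, 0.461 and 0.362 FPKM in livers 1 to 4 of the METTL3-HKD group and 0.0564, 0.0595, 0.0527 and 0.0299 FPKM in those of the METTL3-Flox group. METTL3-HKD liver 1 again stood apart from livers 2 to 4, and 3 to 6 reads lay behind each METTL3-Flox value. The means differed 10.6-fold, and the log2 fold change on the scale with 0.1 FPKM added was 1.99 (standard error 0.309, adjusted p = 0.00690 with limma). With 1 FPKM added it was 0.53 (adjusted p = 0.0200 with limma) and with voom on reads rebuilt from the FPKM 3.23 (adjusted p = 0.00658), so the size of the fitted change of Fosb depends on the scale and its direction does not.

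Fosl2 (ENSMUSG00000029135, chr5:32135801-32157842) encodes Fra-2 and was the most abundant Fos family mRNA of the METTL3-Flox livers. It had 12.9, 6.07, 4.30 and 7.44 FPKM in livers 1 to 4 of the METTL3-HKD group and 2.06, 2.37, 2.20 and 1.54 FPKM in those of the METTL3-Flox group. The METTL3-Flox livers lay close together, and every METTL3-HKD liver lay above them. The ratio of means was 3.76 and the log2 fold change 1.76 (standard error 0.298, 95% interval 1.09 to 2.44, adjusted p = 0.00888 with limma), the smallest of the Fos family on this scale.

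Jun (ENSMUSG00000052684, chr4:95049034-95052222) encodes c-Jun, the target of the JNK kinases. METTL3-HKD livers 1 to 4 had 25.1, 21.7, 34.7 and 27.8 FPKM, and METTL3-Flox livers 1 to 4 had 11.1, 4.13, 3.59 and 3.06 FPKM. METTL3-Flox liver 1 stood far above the other METTL3-Flox livers, yet below every METTL3-HKD liver. The means were 27.3 ± 5.51 and 5.46 ± 3.76 FPKM (SD, n = 4 each), and the log2 fold change was 2.48 (standard error 0.361, adjusted p = 0.00540 with limma). Without METTL3-Flox liver 1 it was 2.88 (adjusted p = 0.00130 with limma). Jun shares 689 bases with the antisense gene Junos, which had a mean of 0.176 FPKM in METTL3-HKD and 0.135 FPKM in METTL3-Flox livers.

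Junb (ENSMUSG00000052837, chr8:84974484-84978718) was the most abundant member in all 8 livers. It had 109, 56.3, 51.5 and 68.7 FPKM in livers 1 to 4 of the METTL3-HKD group and 48.0, 30.6, 32.4 and 26.6 FPKM in those of the METTL3-Flox group. The groups did not overlap, but the lowest METTL3-HKD liver was 1.07 times the highest METTL3-Flox liver. The log2 fold change was 1.02 (standard error 0.256, 95% interval 0.44 to 1.60, adjusted p = 0.0303 with limma), close to both thresholds. The adjusted threshold was missed in 5 of 8 fits that each left out 1 liver, those without METTL3-HKD liver 1 (0.80, adjusted p = 0.0528 with limma) or 4 (1.02) and without METTL3-Flox liver 2 (0.98), 3 (1.01, adjusted p = 0.0774 with limma) or 4 (0.91). Junb overlaps Prdx2 on the opposite strand by 351 bases, and Prdx2 had 28.8 ± 1.69 against 34.2 ± 1.28 FPKM (SD, n = 4 each) and a log2 fold change of −0.25 that was not past the threshold (adjusted p = 0.0596 with limma). The shared exon bases, 173 in all, belong to a noncoding Junb transcript and not to the coding one.

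Jund (ENSMUSG00000071076, chr8:70698949-70700616) encodes JunD, which many unstimulated cells express. It had 31.6, 28.9, 24.5 and 32.8 FPKM in livers 1 to 4 of the METTL3-HKD group and 25.5, 15.3, 15.1 and 13.5 FPKM in those of the METTL3-Flox group. The groups overlapped because METTL3-Flox liver 1 was above METTL3-HKD liver 3. The ratio of means was 1.70 and the log2 fold change 0.80 (standard error 0.194, 95% interval 0.36 to 1.24, adjusted p = 0.0278 with limma), below the fold threshold. The exact permutation test gave p = 0.0571. Jund also missed the adjusted threshold in 6 of the 8 fits that left out 1 liver, with adjusted p from 0.0619 to 0.0772 in limma. The fits without METTL3-HKD liver 3 and without METTL3-Flox liver 1 passed it. Jund overlaps Gm11175 by 919 bases, a gene listed at 0 in every liver.

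**Figure D2:**
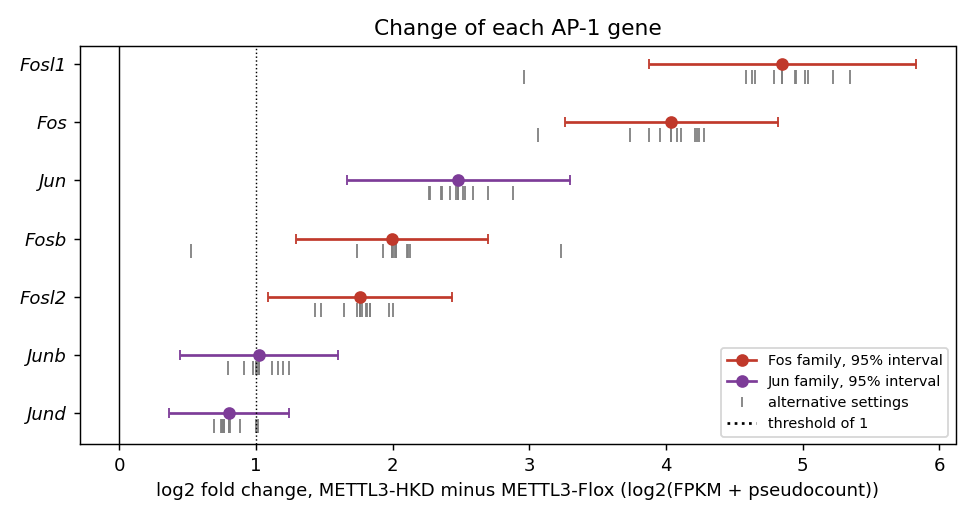
Log2 fold change of each AP-1 gene, METTL3-HKD minus METTL3-Flox, from limma on log2(FPKM + 0.1) with its 95% interval (Fos family in red, Jun family in purple), and the values under alternative settings as grey ticks. All ticks lie to the right of 0, Fosb spreads from 0.53 to 3.23 with the scale, and Junb and Jund lie around the dotted threshold of 1.

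The order of the members by level differed between the groups. In METTL3-Flox livers it was Junb, Jund, Jun, Fosl2, Fos, Fosl1 and Fosb, and each neighbouring pair kept this order in 4 of 4 livers with ranges that did not overlap. The last step, Fosl1 above Fosb, is not secure, since it rests on 2 to 9 and 3 to 6 reads per liver. In METTL3-Flox liver 1 Fosl1 had 2 reads and Fosb 5, and Fosl1 ranked higher there only per gene length. In METTL3-HKD livers it was Junb, Jund, Jun, Fos, Fosl1, Fosl2 and Fosb. There the ranges of neighbours over livers overlapped from Jund down to Fosl2. Within livers, Fos was above Fosl1 in 4 of 4 (log2 ratio 0.73 ± 0.53, SD, n = 4). Jun was above Fos in 3 of 4 (0.98 ± 0.82, SD, n = 4), with the order reversed in METTL3-HKD liver 1. Jund was above Jun in 3 of 4 (0.12 ± 0.42, SD, n = 4) and Fosl1 above Fosl2 in 2 of 4 (0.22 ± 0.57, SD, n = 4). Neither of the latter pairs was separated beyond its spread. Junb and Jund kept a nearly fixed proportion among METTL3-Flox livers, with a log2 ratio of 1.00 ± 0.0776 (SD, n = 4), against 1.22 ± 0.382 (SD, n = 4) among METTL3-HKD livers.

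The summed FPKM of the 7 genes was 128 to 220 in METTL3-HKD and 45.5 to 88.0 in METTL3-Flox livers. Fos family mRNA made up 24.6, 22.7, 13.8 and 17.0% of this sum in METTL3-HKD livers 1 to 4 and 3.96, 6.51, 5.59 and 5.11% in METTL3-Flox livers 1 to 4. The Jun family, which can dimerize without Fos partners, was thus the larger part in all 8 livers, and the smaller Fos part was higher in every METTL3-HKD liver. The mean share of Fos was 8.88% against 1.27%, that of Fosl1 5.71% against 0.387% and that of Jun 18% against 8.41%. The shares of Junb and Jund were lower in METTL3-HKD livers although their levels were higher, at 43.6% against 57.5% and 18.9% against 28.8%. Jun made up 27.0% of the sum in METTL3-HKD liver 3, which had the smallest Fos family share of its group, and 11.4% in METTL3-HKD liver 1, which had the largest.

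**Figure D3:**
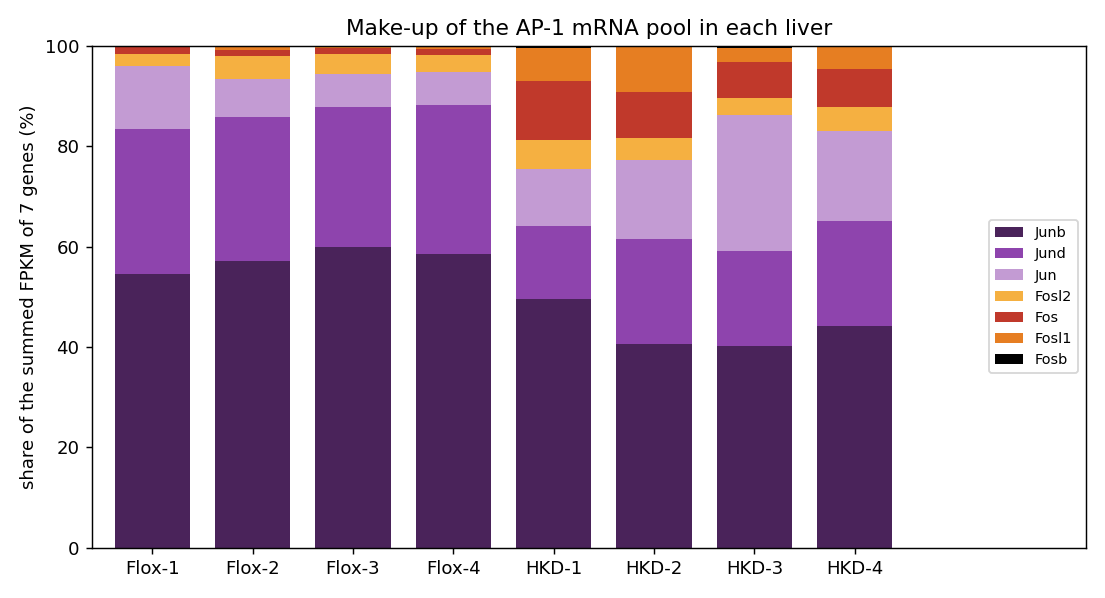
Share of each gene in the summed FPKM of the 7 AP-1 genes, in percent, for each METTL3-Flox (Flox) and METTL3-HKD (HKD) liver. Jun family genes in purple fill most of every bar, and the Fos family genes on top take 13.8 to 24.6% of it in METTL3-HKD against 3.96 to 6.51% in METTL3-Flox livers.

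Differences between members in their change were tested by the log2 ratio of 2 genes within each liver, in which the scaling between libraries cancels but for its effect on the 0.1 FPKM added to each level. With the exact permutation test, two-sided, 14 of the 21 pairs differed between groups (each at p = 0.0286, with a Benjamini-Hochberg adjusted p of 0.0429 over 21 pairs). Of the 12 pairs of 1 Fos and 1 Jun family gene, 9 were among them, and on this scale the Fos family gene rose more in all 9. With 1 FPKM added, the difference turned to the other side for Fosb against Junb (−0.48) and Jund (−0.24), with overlap between groups, and Fosb lay below Jun (−1.73, exact p = 0.0286) without overlap. The change of Fos exceeded that of Junb by 3.01 on the log2 scale, that of Jund by 3.24, that of Jun by 1.56 and that of Fosl2 by 2.27. The change of Fosl1 exceeded those of Junb, Jund and Fosl2 by 3.83, 4.05 and 3.09. Fosl2 rose more than Junb and Jund by 0.74 and 0.96, and within the Jun family Jun rose more than Jund by 1.68.
The ratio of Fos to Fosl1 did not pass the test (difference −0.81, exact p = 0.200, adjusted p = 0.247), nor did that of Junb to Jund (0.22, exact p = 0.286, adjusted p = 0.316). For Jun and Junb the difference was 1.46, with an overlap between groups (exact p = 0.0571, adjusted p = 0.0750). Ratios with Fosb depend on the pseudocount in size and in direction, since its level lies below it in the METTL3-Flox livers. Without a pseudocount, an alternative chosen after seeing the data, 14 pairs differed too, and 12 of them were the same pairs. With 1 FPKM added, 12 pairs reached the smallest exact p but 0 passed the adjusted threshold. In 8 pairs the groups were apart on all 3 scales, and these were Fos against Fosl2, Junb and Jund, Fosl1 against Fosl2, Junb and Jund, Fosl2 against Jund and Jun against Jund.

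**Figure D4:**
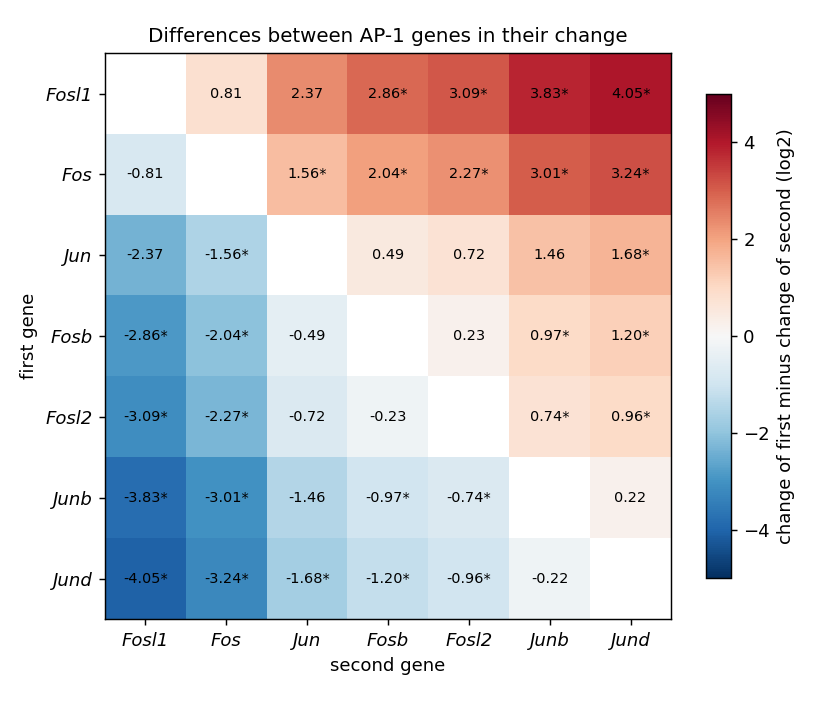
Difference in log2 change (METTL3-HKD minus METTL3-Flox) between the gene of the row and the gene of the column, with stars for pairs at an adjusted p under 0.05 in the exact permutation test over 21 pairs. Fosl1 and Fos form the rows of largest positive differences, up to 4.05 for Fosl1 against Jund.

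Livers within a group moved partly together across members. METTL3-HKD liver 1 had the highest level of its group in 5 of the 7 genes and METTL3-HKD liver 3 the lowest in 5, whereas METTL3-Flox liver 4 was lowest in 6. Within METTL3-HKD mice the highest liver was 2.53 to 3.83 times the lowest in the 4 Fos family genes, 2.12 times in Junb, 1.60 times in Jun and 1.34 times in Jund. Of the neutrophil markers, 7 of the 9 tested were upregulated, where 4.7% of all tested genes were. Ly6g, named after its value was seen, is 1 of these. Its METTL3-Flox mean was 0.0374 FPKM, so it reached the minimum level through METTL3-HKD livers. With a minimum mean of 1 FPKM, 6 of 7 tested markers were upregulated. The sum of the neutrophil markers was also highest in METTL3-HKD liver 1 and lowest in METTL3-HKD liver 3, at 1624, 379, 330 and 544 FPKM in livers 1 to 4. This order was not particular to neutrophil markers. Summed bZIP partners, promoter factors, turnover factors, AP-1 targets and other immediate early genes, described below, had the same highest and lowest METTL3-HKD liver. MAP kinases and the other cell type lists did not. Monocyte and macrophage markers summed to 112 to 305 FPKM against 58.5 to 85.2 FPKM, with 2 of 6 upregulated, and cholangiocyte markers to 7.79 to 13.9 FPKM against 3.19 to 6.10 FPKM, with 3 of 4 upregulated. The cholangiocyte count fell to 1 without METTL3-HKD liver 1 or 2 or METTL3-Flox liver 2, 3 or 4. It was also 1 with the replicate block, with no minimum level and with 1 FPKM added, and 2 without METTL3-HKD liver 3 or METTL3-Flox liver 1. Kupffer cell markers summed to 130 to 262 FPKM against 256 to 633 FPKM, with 3 of 8 downregulated, where 253 of the 16645 genes tested were, and the highest sum in METTL3-Flox liver 1. The count of Kupffer cell markers was 0 without METTL3-HKD liver 3 or 4 or METTL3-Flox liver 1, 3 or 4, with scaling to reads on genes and with no minimum level, and it was 2, 5 and 4 without METTL3-HKD liver 1, METTL3-HKD liver 2 and METTL3-Flox liver 2. Endothelial markers (53.9 to 64.9 against 55.9 to 64.7 FPKM) and lymphocyte markers (0.523 to 2.50 against 0.753 to 1.49 FPKM) had 0 calls with limma and with voom, and 1 and 0 genes at an unadjusted p under 0.05, and stellate cell markers had 1 call in each direction, the upregulated one lost without METTL3-HKD liver 1 or 3 or any METTL3-Flox liver (35.2 to 46.6 against 36.3 to 67.0 FPKM). The counts at an unadjusted p under 0.05 are given without the share of all tested genes, so they cannot be set against it. No marker of these lists was at 0 in every liver, and the part of these cells was not tested.
Without METTL3-HKD liver 1, the liver with the highest neutrophil marker sum, the log2 fold changes were 3.73 for Fos, 1.74 for Fosb, 4.58 for Fosl1, 1.48 for Fosl2 and 2.51 for Jun. These 5 genes were still upregulated with limma, and Junb and Jund were not. The value fell by between 0.23 and 0.30 in Fos, Fosb, Fosl1, Fosl2 and Junb and by 0.04 in Jund, and it rose by 0.03 in Jun.

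Among 13 other bZIP genes that can pair with Fos or Jun proteins or share their sites, 2 were upregulated, where 4.7% of all tested genes were, 0 were downregulated and the median log2 fold change was 0.21. Atf3, a stress-induced factor that pairs with Jun proteins, had 23.4 ± 5.02 against 1.04 ± 0.572 FPKM (SD, n = 4 each), and the log2 fold change was 4.50 (adjusted p = 0.000589 with limma). Maff, a small Maf protein without an activation domain, had 16.9 ± 6.13 against 0.983 ± 0.533 FPKM (SD, n = 4 each), and the log2 fold change was 4.06 (adjusted p = 0.00190 with limma). Both lie in the range of Fos and Fosl1. The most abundant gene of this list without a call was Atf4, at 60.0 against 49.5 FPKM (log2 fold change 0.29, adjusted p = 0.221 with limma). Mafk, named after its value was seen, also passed the adjusted threshold below the fold threshold (0.84, adjusted p = 0.0386 with limma), and the count of higher genes in this list was 2 to 5 over the alternatives. Without METTL3-HKD liver 3, and with scaling to reads on genes, 4 genes of this list were upregulated.
Genes that act upstream of AP-1 or on the decay of its products were counted in the same fit. The share of all tested genes with an unadjusted p under 0.05 is not given here. The counts of genes at that level below therefore cannot be set against it. They show neither an excess nor the lack of one and are not read as signs of a change. Of the MAP kinases, 9 of 10 were tested, 0 passed the adjusted threshold with limma or voom in either direction (Mapk13 was upregulated without METTL3-HKD liver 3 and Mapk8 was higher with scaling to reads on genes, both named after their values were seen), 2 had an unadjusted p under 0.05, and the median log2 fold change was 0.13. The most abundant of them, Mapk14, which encodes p38 alpha, had 20.4 against 24.7 FPKM (−0.28, adjusted p = 0.208 with limma). These are mRNA levels and say nothing of phosphorylation. Of 13 factors that bind immediate early promoters, 0 were upregulated with limma or voom, 6 had an unadjusted p under 0.05, and Srf (0.58), Crem (0.77) and Atf1 (0.43), named after their values were seen, were higher at adjusted p of 0.0440, 0.0450 and 0.0219 with limma, where 9.05% of all tested genes were higher. This count of 3 fell to 0 without METTL3-HKD liver 1 or 2 or METTL3-Flox liver 2 or 3, and to 1 without METTL3-HKD liver 4 or METTL3-Flox liver 4 and with the replicate block. Stat3, the most abundant of this list, had 27.2 FPKM in both groups. Of 10 genes that act on the decay of AP-1 mRNAs or proteins, 0 were upregulated with limma or voom and 5 had an unadjusted p under 0.05, while Zfp36l2 (0.66, adjusted p = 0.0442 with limma) and Hnrnpd (0.46, adjusted p = 0.0290 with limma), also named after their values were seen, were higher. This count of 2 fell to 0 without METTL3-HKD liver 1 or 2 or METTL3-Flox liver 3 or 4 and with the replicate block, and to 1 without METTL3-HKD liver 3 or METTL3-Flox liver 2. Zfp36, which encodes tristetraprolin, a factor that binds AU-rich mRNA and speeds its decay, had 31.0 against 21.9 FPKM (0.45, adjusted p = 0.180 with limma).

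Of 20 genes known as AP-1 targets, 17 were upregulated and 0 downregulated, where 4.7% of all tested genes were upregulated, with a median log2 fold change of 3.38. With 1 FPKM added, 15 were upregulated and the median was 1.69. Summed, they reached 736, 427, 231 and 417 FPKM in livers 1 to 4 of the METTL3-HKD group, again highest in liver 1 and lowest in liver 3, and 86.4 to 111 FPKM in METTL3-Flox livers. Lif, a cytokine of the IL-6 family, rose by 4.40 on the log2 scale (adjusted p = 0.000589 with limma) from at most 5 reads per METTL3-Flox liver. Mmp10, a matrix metalloproteinase, had 12.0 ± 7.87 FPKM (SD, n = 4) and 0 reads in every METTL3-Flox liver, so that its group mean, resting on 53 to 635 reads per METTL3-HKD liver, was at least 129-fold higher than a floor of 3 reads per liver. With Mmp10 at this bound the median of the list was 3.38 as well. Edn1 (1.82, adjusted p = 0.00230 with limma), which encodes endothelin 1, and Ptgs2 (4.89, adjusted p = 0.00281 with limma), which encodes cyclooxygenase 2, also had adjusted p among the smallest of the list. Plau and Ccnd1, named after their values were seen, and Timp1 were not called, and Timp1, the most abundant of the 3, had 12.9 ± 9.77 against 3.5 ± 1.34 FPKM (SD, n = 4 each) and lies opposite to Syn1, which had 0.201 FPKM. All 15 other immediate early genes of a further list were upregulated, with a median of 2.18, and with 1 FPKM added 9 were, with a median of 1.44. Klf6 (2.94), Egr1 (2.79), Ier3 (4.24), Cyr61 (2.90) and Nr4a3 (2.57) had the smallest adjusted p, from 0.00105 to 0.00473 with limma. With each liver left out in turn, 17 to 18 of the 20 targets and 12 to 15 of the 15 immediate early genes were upregulated, and without METTL3-HKD liver 1 they were 17 and 13. These counts are a description and include genes with METTL3-Flox means under 0.1 FPKM, which reached the minimum level through METTL3-HKD livers. They are Mmp10, Ptgs2, Lif, Il6 and Il11 of the targets and Nr4a3, Egr2, Egr3, Nr4a2 and Arc of the immediate early genes. Il6, Il11, Egr2, Egr3, Nr4a2 and Arc are named after their values were seen.

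**Figure D5:**
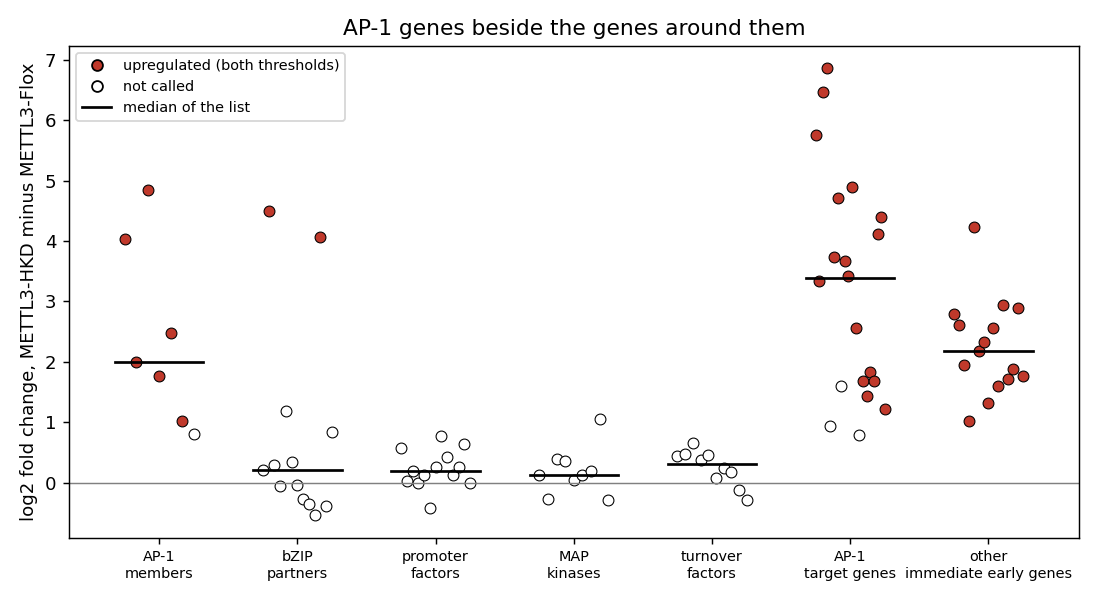
Log2 fold change (METTL3-HKD minus METTL3-Flox, log2(FPKM + 0.1)) of each tested gene of the AP-1 members and 6 further lists, filled in red where upregulated at both thresholds, with the list median as a bar. The medians of bZIP partners, promoter factors, MAP kinases and turnover factors lie between 0.13 and 0.31, and those of AP-1 targets and other immediate early genes at 3.38 and 2.18, and points of genes with few METTL3-Flox reads, such as Mmp10, depend on the pseudocount.

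For each member, the gene with the most similar profile over the 8 livers was sought among 9793 protein-coding genes whose mean reached 1 FPKM, by the root-mean-square difference of log2(FPKM + 0.1) after each gene was centred on its mean. Fos was closest to Hilpda, a lipid droplet protein, at 0.207, and Fosl1 to Dusp5, a phosphatase of ERK, at 0.456. Fosl2 was closest to Gpr35 at 0.130, Fosb to Fxyd5 at 0.199 and Jun to Cyp2b10, a cytochrome P450, at 0.321. Junb was closest to Tmem173, which encodes STING, at 0.142 and Jund to Tmem251 at 0.114. Among the members themselves, Junb and Jund were 0.263 apart, Fosb and Fosl2 0.308 on this scale, Fos and Fosl1 0.790, and Jun was 0.646 from its nearest member, Fosb. These distances are descriptions over livers that share the group difference, so a similar fold change alone brings 2 genes close. The distances of Fosb depend on the pseudocount, and its change exceeded that of Fosl2 by 1.54 without one (exact p = 0.0286, adjusted p = 0.0429) and lay below it with 1 FPKM added (−0.90, exact p = 0.0286, adjusted p = 0.05).

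The 2 families differ in gene structure as well. In the longest coding transcripts of GENCODE M21, the 4 Fos family genes have 4 exons each and the 3 Jun family genes have 1, as do 2.7% of 13106 coding genes tested, whose median is 9 exons. The AU-rich pentamer ATTTA, part of elements that mark short-lived mRNAs, occurs in the 3′ untranslated region 8 times in Fosl2, 4 times each in Fos and Jun, 2 times in Junb and 1 time each in Fosb, Fosl1 and Jund, and 32.5% of coding genes have at least 3. Per kilobase of that region this is 4.91 in Fos, 4.12 in Junb and 3.24 in Jun, 1.57 to 1.88 in Fosl1, Fosl2 and Jund and 0.466 in Fosb, against a median of 1.17. GGACT, a form of the sequence in which METTL3 is known to methylate adenosine, occurs 3 to 8 times per transcript in 6 members and 0 times in Fosl1. Its density is 1.22 to 2.40 per kilobase in those 6, against a median of 1.06 over coding genes. The pentamers were counted in the reference sequence, and methylation was not measured in these libraries.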

How the data were processed

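RNA sequencing of 8 mouse livers, 4 METTL3-HKD and 4 METTL3-Flox, was analysed, with groups and replicate numbers taken from the sample titles. Libraries were made with a SMARTer mRNA-Seq kit. The submitters' processing notes name the builds GRCm38 and mm10, whereas the aligner, the counting and the strand setting are not given in the sources used here, so reads of overlapping antisense genes could not be told apart. Among genes named beside the members, Mafk, Stat3 and Ccnd1 overlap the expressed genes Tmem184a, Stat5a and Oraov1 on the opposite strand. Tmem251 shares 3800 bases with Gm20604 on the opposite strand, which had a mean of 0.559 FPKM. Zfp36 and Crem overlap Gm44710 and Gm6225 there, at means of 0.272 and 0.126 FPKM. The authors deposited FPKM for 54532 genes with the gene length of each. Multiplying each FPKM by gene length and by 1 scaling value per library returned whole reads for 100% of values above 0 (tolerance 0.1 reads), and these rebuilt reads served for depth, counting intervals and the voom alternative. Intervals and floors cover counting error only. Date-like symbols of 27 genes were restored by identifier. Of the listed genes, 54409 are in GENCODE M21, 98.26% of them at the same coordinates.

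All 16645 genes whose mean reached 0.1 FPKM were compared on log2(FPKM + 0.1) with limma 3.58.1 (lmFit, then eBayes with trend) in R 4.3.3, two-sided, with Benjamini-Hochberg adjustment over all of them. Called genes had an adjusted p below 0.05 and changed by 1 or more on the log2 scale. The fit was checked on simulated data, and it was repeated with other pseudocounts, level minimums, scaling, gene types, voom, a replicate block and each liver left out. Exact permutation tests were run with scipy 1.17.1 in Python 3.11.15. The labels do not say how the mice were kept or processed together, so p-values measure the spread between these mice. The members and lists were chosen with earlier results of these data known. All 7 members, Mettl3, up to 5 called genes of each list with the smallest adjusted p, the most abundant gene without a call, and the closest profile to each member are named, and other named genes are marked as chosen after their values were seen. Promoter sequences are from RefSeq, and protein sequences were not used here. A gene that this rule would name is not reported here.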

Additional observations from a re-analysis of the deposited data

Results flagged for a closer look

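Among the 14 sets of 4 livers formed by the 7 members in the 2 groups, 2 held a liver that stood apart from the other 3 by Dixon's criterion at 95%, where chance alone marks about 1 in 20. Jun reached 11.1 FPKM in METTL3-Flox liver 1, and the gap to the next liver was 0.866 of the range of the group, above the critical value for 4 samples. Jund reached 25.5 FPKM in the same liver, with a gap of 0.847 of the range. Without this liver, the log2 fold changes of Jun and Jund were 2.88 and 0.998 (adjusted p = 0.00130 and 0.00701 with limma), and Jund was still below the fold threshold.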

How the results depend on the processing

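Fos, Fosb, Fosl1, Fosl2 and Jun kept their direction and an adjusted p under 0.05 with limma in all alternatives run, 15 for Fosb, which was not tested at a minimum mean of 1 FPKM, and 16 for each of the others. Their log2 fold changes ranged from 3.07 to 4.28, 0.53 to 3.23, 2.96 to 5.34, 1.43 to 2.0 and 2.26 to 2.88, and between 5 and 7 members were upregulated. Junb missed the adjusted threshold with no minimum level (1.02, adjusted p = 0.0507 with limma) and with no mean-variance trend (1.02, adjusted p = 0.0511), and ranged from 0.80 to 1.19 with each liver left out in turn. Jund ranged from 0.69 to 0.998 with each liver left out. The cause was not tested. The number of member pairs that differed was 14, and 0 with a pseudocount of 1 FPKM. On that scale 12 pairs still reached the smallest exact p, each with an adjusted p of 0.05 in the exact permutation test. The adjusted p of such pairs is set by how many of the 21 reach that smallest value. Scaling each library to its reads on genes moved the median of all genes by 0.20, and Jund then reached 1.01, which is 0.81 relative to that shift.
With the replicate block, 6 members were upregulated as without it (Fos 4.04, adjusted p = 0.00145; Junb 1.02, adjusted p = 0.0192; Jund 0.80, adjusted p = 0.0391, all with limma), and 616 genes were upregulated and 200 downregulated, against 782 and 253. The labels do not say whether mice of the same number are pairs. Deviations of same-numbered livers from their group means correlated at only 0.0711, −0.0838, −0.0134 and −0.0339, which cannot decide it, since a pairing need not show in these values. The block was not run for the pairs of members, because the exact form of that test, sign flips of 4 differences, cannot reach p under 0.05. The pairs were not recomputed with a liver left out. Fosl1 and Fosb rest on 2 to 9 and 3 to 6 reads per METTL3-Flox liver, so the size of their change is imprecise.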
